A study of Mus musculus with 2 samples.

Results

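The 8 microRNA (miRNA) genes described here belong to 3 paralogous clusters, in which a miR-99/100 gene, a let-7 gene and a miR-125 gene lie next to each other on the same strand. They were chosen by symbol, not by level: Mir99a, Mirlet7c-1 and Mir125b-2 on chromosome 16, Mir100 and Mir125b-1 on chromosome 9, and Mir99b, Mirlet7e and Mir125a on chromosome 17. All 8 were found among the 2202 miRNA genes of the deposited tables. The tables hold raw read counts from small RNA libraries of the gastrocnemius, a calf muscle of mixed fibre type, from male B6CASTF1/J mice aged 25 days. B6CASTF1/J mice are F1 hybrids of C57BL/6 with CAST, a strain derived from wild mice. There is 1 group of 2 libraries, biological replicates 2 and 1, with no treatment and no control. The sample descriptions number separate males but carry the same donor identifier, so whether 2 animals were used is uncertain and the spread between libraries may be technical.

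MiRNAs are cut from hairpins in longer primary transcripts, and the arm loaded into Argonaute pairs with messenger RNAs mainly through its seed, bases 2 to 8. The let-7 and miR-125 families are the vertebrate relatives of the nematode timing genes let-7 and lin-4, and let-7 is known for its accumulation as tissues differentiate, held back earlier by the RNA-binding protein LIN28. MiR-99/100 are known to repress mTOR and the IGF1 receptor, and in mouse myoblasts miR-125b is known to repress Igf2. A gene row counts reads of the whole hairpin, so the arms (5p and 3p) are not told apart in these data.

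The mature sequences show which members can be separated by reads placed at 1 locus. RefSeq (GRCm38.p6, the build also called mm10) lists both arms of all 8 members, with 7 distinct 5p sequences and 3 distinct 5p seeds. The 5p arms follow, 5′ to 3′, with the seed in capitals.
miR-99a-5p (Mir99a): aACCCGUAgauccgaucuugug
miR-100-5p (Mir100): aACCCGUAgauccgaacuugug
miR-99b-5p (Mir99b): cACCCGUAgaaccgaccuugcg
let-7c-5p (Mirlet7c-1): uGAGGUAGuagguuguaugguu
let-7e-5p (Mirlet7e): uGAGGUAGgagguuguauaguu
miR-125b-5p (Mir125b-1 and Mir125b-2): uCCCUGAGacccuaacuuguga
miR-125a-5p (Mir125a): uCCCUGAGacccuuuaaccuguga

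Within each family the distinct 5p sequences share the seed and differ 3′ of it, and miR-99b-5p also differs in its first base. Mir125b-1 and Mir125b-2 have the same 5p sequence. With positions counted from 1 at the 5′ end, miR-99a-5p differs from miR-100-5p by the single substitution U16A. It differs from miR-99b-5p by A1C, U11A, U16C and U21C, and let-7c-5p differs from let-7e-5p by U9G and G19A. MiR-125a-5p has 24 bases against 22 in miR-125b-5p and shares its first 13 bases.

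The members also differ in how often the 5p arm occurs among the annotated hairpins of all 2202 genes. The miR-125b-5p sequence is in the hairpins of Mir125b-1 and Mir125b-2, and let-7c-5p is in those of Mirlet7c-1 and Mirlet7c-2 (chromosome 15). The 5p arms of the other 5 members are each in their own hairpin alone. The 3p arms differ between these copies, which is why they are shown here with bases 2 to 8 in capitals. Those of the 3 members are each in 1 annotated hairpin, whereas let-7c-2-3p is also in that of Mirlet7a-1.
miR-125b-2-3p (Mir125b-2): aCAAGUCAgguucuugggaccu
miR-125b-1-3p (Mir125b-1): aCGGGUUAggcucuugggagcu
let-7c-1-3p (Mirlet7c-1): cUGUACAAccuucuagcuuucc
let-7c-2-3p (Mirlet7c-2): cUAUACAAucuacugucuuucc

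MiR-125b-2-3p differs from miR-125b-1-3p by A3G, A4G, C7U, U11C and C20G, and let-7c-1-3p from let-7c-2-3p by G3A, C9U, U12A, A15G and G16U. The longest stretch shared with an annotated hairpin at another locus was 24 bases for each Mir125b gene and 23 for Mirlet7c-1. For the others it was 17 bases for Mirlet7e, 16 for Mir99a and Mir100, 14 for Mir125a and 11 for Mir99b. The hairpins of the let-7c pair show how far the copies agree, with the mature 5p arm in capitals.
Mirlet7c-1 (chr16:77599657-77599750, plus strand): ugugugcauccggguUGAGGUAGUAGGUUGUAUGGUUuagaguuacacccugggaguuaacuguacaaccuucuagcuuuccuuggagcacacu
Mirlet7c-2 (chr15:85706603-85706697, plus strand): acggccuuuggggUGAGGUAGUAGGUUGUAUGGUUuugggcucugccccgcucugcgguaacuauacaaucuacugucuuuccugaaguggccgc

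All 8 hairpins lie on the plus strand, inside longer genes of GENCODE M21, and the 3 clusters differ in spacing. On chromosome 16, Mir99a (chr16:77598936-77599000) and Mirlet7c-1 are 656 bases apart, and Mir125b-2 (chr16:77646273-77646343) follows after 46522 bases, all in introns of the non-coding gene Mir99ahg. On chromosome 9, Mir100 (chr9:41531425-41531504) and Mir125b-1 (chr9:41581926-41582002) are 50421 bases apart in introns of the non-coding gene 3110039I08Rik. Between them lies Mirlet7a-2 (chr9:41536716-41536811), the let-7 gene of that cluster, which the choice of members left out. Mir125b-1 also lies in the exon of Gm28119, a sense-intronic transcript, and Mir100 overlaps an exon of the opposite-strand lincRNA Gm48742. On chromosome 17, Mir99b (chr17:17830188-17830257), Mirlet7e (chr17:17830352-17830444) and Mir125a (chr17:17830812-17830879) fit into 692 bases of the protein-coding gene Spaca6. There Mir99b and Mirlet7e are intronic, and Mir125a overlaps an exon in 1 of 16 annotated Spaca6 transcripts.

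**Figure D1:**
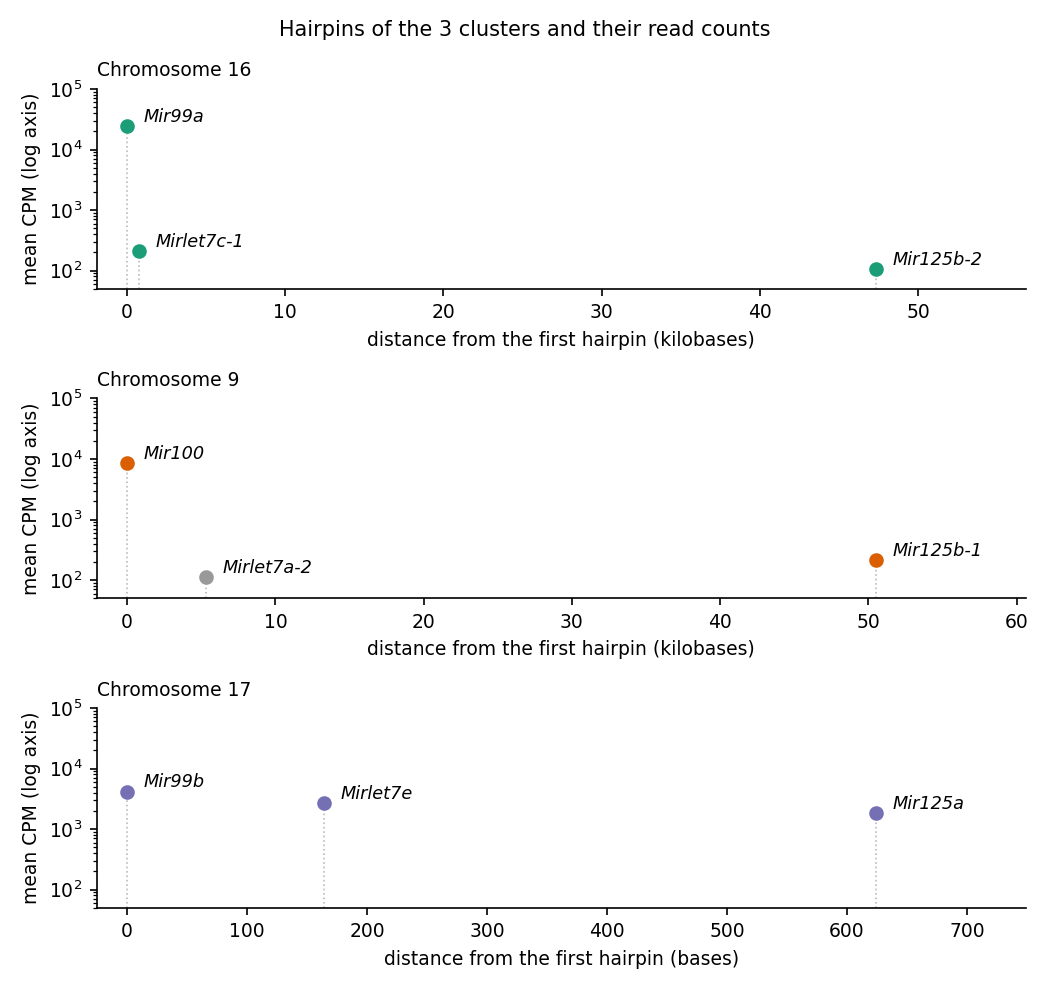
Position of each miRNA hairpin with counts in the 3 clusters (x axis, distance from the start of the first hairpin, in kilobases or bases) against mean CPM over the 2 libraries (y axis, log scale). Coloured points are members and the grey point is Mirlet7a-2; the miR-99/100 gene, first in each cluster, is the highest at 24757, 8439 and 4170 CPM.

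Gene counts on the strand of the gene totalled 2028332 in replicate 2 and 1491341 in replicate 1, and levels are given as CPM, counts per 1000000 gene counts. The gene rows leave out reads with several alignments, which were 71.8% of the reads of replicate 2 and 69.8% of those of replicate 1. Levels of the members thus cover reads placed at 1 locus. A count of 0 would allow up to 3 counts, or 1.48 CPM in replicate 2 and 2.01 CPM in replicate 1, and no member was near that floor. All 9 listed skeletal muscle miRNA genes had counts in both libraries, together 4.84% and 5.51% of gene counts in replicates 2 and 1. Most of this came from the muscle-specific Mir206, with 49955 ± 4826 CPM (SD, n = 2). Next was Mir486 at 749.6 ± 103.5 CPM, and the lowest, Mir133a-2, had 8 and 1 counts. The endothelial list, nearly all of it Mir126a, held more, at 8.75% and 7.83%. So did the smooth muscle and pericyte list, at 7.87% and 5.89%. The fit of the markers to the labelled tissue thus rests on Mir206. Of the 6 neuronal Mir9 and Mir124a genes 5 had no count, and the liver gene Mir122 had 23 and 20 counts. Reads with several alignments are missing from these rows too, so the zeros do not show that the miRNAs were absent. For the same reason the shares of the lists do not rank the cell types by their miRNA.

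The 8 members held 79423 gene counts in replicate 2 and 68106 in replicate 1, or 3.92% (exact Clopper-Pearson 95% interval 3.89 to 3.94) and 4.57% (4.53 to 4.60). PCR copies of 1 molecule are counted separately, so these intervals and those that follow describe counting error alone. Of the members' counts, 59.2 ± 2.06% came from chromosome 16, 20.4 ± 0.208% from chromosome 9 and 20.4 ± 1.85% from chromosome 17 (SD, n = 2). As shares of all gene counts, chromosome 16 held 2.38% in replicate 2 and 2.64% in replicate 1, chromosome 9 held 0.793% and 0.938%, and chromosome 17 held 0.747% and 0.991%. Chromosomes 9 and 17 changed places between the libraries, so their order is not settled. In a bulk sample, fewer cells of a type and less RNA per cell cannot be told apart.

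The miR-99/100 genes were the 3 highest members. Mir99a had 47599 counts in replicate 2 and 38845 in replicate 1, which is 23467 and 26047 CPM, and was the 11th gene of 2202 in both libraries. Mir100, whose 5p arm differs from that of Mir99a by U16A, had 15650 and 13663 counts, or 7716 and 9162 CPM. Mir99b had 6969 and 7315 counts, or 3436 and 4905 CPM. Both libraries put the 3 genes in the same order without overlap, with Mir99a 3.04-fold above Mir100 in replicate 2 and 2.84-fold in replicate 1. Mir100 exceeded Mir99b by 2.25-fold and 1.87-fold.

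The let-7 members stood far apart. Mirlet7e had 4718 counts in replicate 2 and 4439 in replicate 1, or 2326 and 2977 CPM. Mirlet7c-1 had 369 and 349 counts, or 181.9 and 234.0 CPM, with exact Poisson 95% intervals of 163.8 to 201.5 and 210.1 to 259.9. The log2 ratio of Mirlet7c-1 counts to Mirlet7e counts was -3.68 in replicate 2 and -3.67 in replicate 1, the smallest difference between libraries among the 7 pairs of members of 1 family.

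Among the miR-125 members, Mir125a had 3463 counts in replicate 2 and 3019 in replicate 1, or 1707 and 2024 CPM. Mir125b-1 had 431 and 327 counts, or 212.5 and 219.3 CPM, and Mir125b-2 had 224 and 149 counts, or 110.4 and 99.9 CPM. Mir125b-1 was above Mir125b-2 in both libraries, and the log2 ratio of Mir125b-2 counts to Mir125b-1 counts was -0.94 (exact 95% interval -1.18 to -0.71) in replicate 2 and -1.13 (-1.42 to -0.85) in replicate 1. These reads rest on whatever part of each hairpin placed them at 1 locus. The deposited counts do not say how many reads of the shared miR-125b-5p came from either gene.

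By mean CPM the order was Mir99a (24757 ± 1824), Mir100 (8439 ± 1022), Mir99b (4170 ± 1039), Mirlet7e (2651 ± 460), Mir125a (1866 ± 224), Mir125b-1 (215.9 ± 4.79), Mirlet7c-1 (208.0 ± 36.8) and Mir125b-2 (105.2 ± 7.44; SD, n = 2). The highest was 235-fold above the lowest. In 6 of 7 neighbouring pairs the libraries did not overlap, and the exception was Mir125b-1 beside Mirlet7c-1, whose order turned round between the libraries. Levels here are not divided by length, because a read covers a whole mature miRNA of 21 to 24 bases. Per base of the hairpin (65 to 94 bases), an alternative added after the data were seen, the order of the means was the same for all 8. In replicate 2 alone, Mirlet7e and Mir125a were then nearly level and in the other order, at 25.0 and 25.1 CPM per base. The 3 members whose 5p arm is in a further hairpin had the 3 lowest levels, from 105.2 to 215.9 CPM, against 1866 to 24757 CPM for the other 5. In these counts, low output of a locus and reads left out for matching several loci cannot be told apart.

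**Figure D2:**
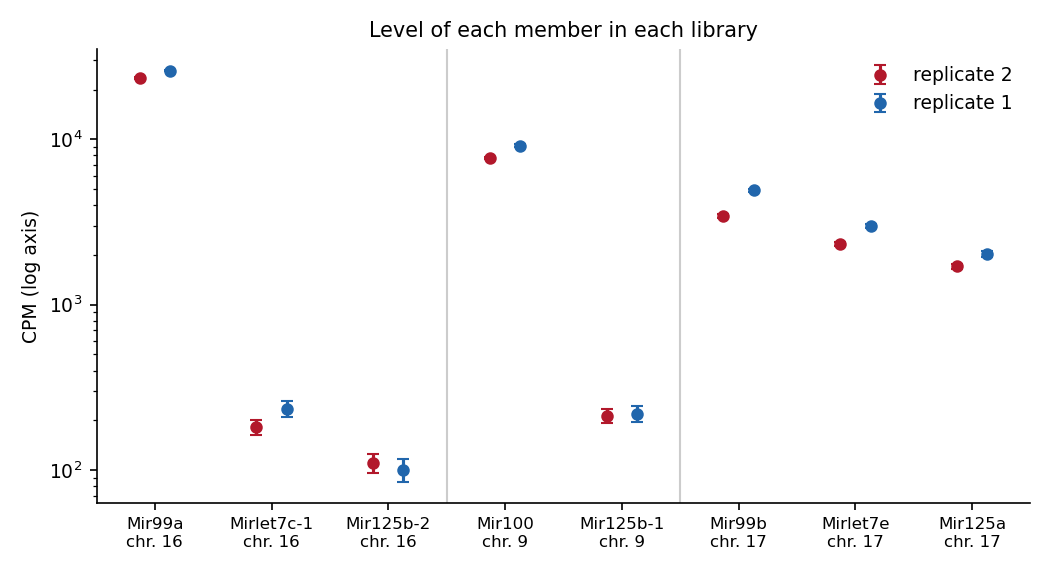
CPM of each member (y axis, log scale) in replicate 2 (red) and replicate 1 (blue), with exact Poisson 95% intervals as bars, ordered by cluster along the x axis. Mirlet7c-1, Mir125b-2 and Mir125b-1 lie near 100 to 234 CPM and the other 5 at 1707 CPM or more.

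Counts of members of a single cluster were unequal in all 7 pairs and both libraries, and the size of the inequality differed by cluster. On chromosome 17, where no 5p arm is shared with another locus, it was small. The log2 ratio of Mir99b counts to Mirlet7e counts was 0.56 (exact 95% interval 0.51 to 0.62) in replicate 2 and 0.72 (0.67 to 0.77) in replicate 1. For Mir99b to Mir125a it was 1.01 (0.95 to 1.07) and 1.28 (1.22 to 1.34), and for Mirlet7e to Mir125a 0.45 (0.38 to 0.51) and 0.56 (0.49 to 0.62). The intervals of both Mir99b pairs did not overlap between the libraries, so Mir99b made up less of its cluster in replicate 2 beyond counting error, whereas those of Mirlet7e to Mir125a overlapped.

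On the other chromosomes the counts of the miR-99/100 gene exceeded those of its neighbours by far more. The 5p arms of Mirlet7c-1, Mir125b-2 and Mir125b-1 are shared with other loci, while those of Mir99a and Mir100 are not. These ratios thus cannot tell low output of a neighbour from its reads left out for matching several loci. Mir99a to Mirlet7c-1 gave a log2 ratio of counts of 7.01 in replicate 2 and 6.80 in replicate 1, and Mir99a to Mir125b-2 gave 7.73 and 8.03. Mir100 to Mir125b-1 gave 5.18 and 5.38. Mirlet7c-1 to Mir125b-2, where both 5p arms are shared with other loci, gave 0.72 (0.48 to 0.97) and 1.23 (0.95 to 1.51). For each of these 4 pairs the exact intervals of the libraries overlapped. Mirlet7a-2, inside the chromosome 9 cluster, had 199 and 184 counts, below both Mir100 and Mir125b-1 in each library.

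**Figure D3:**
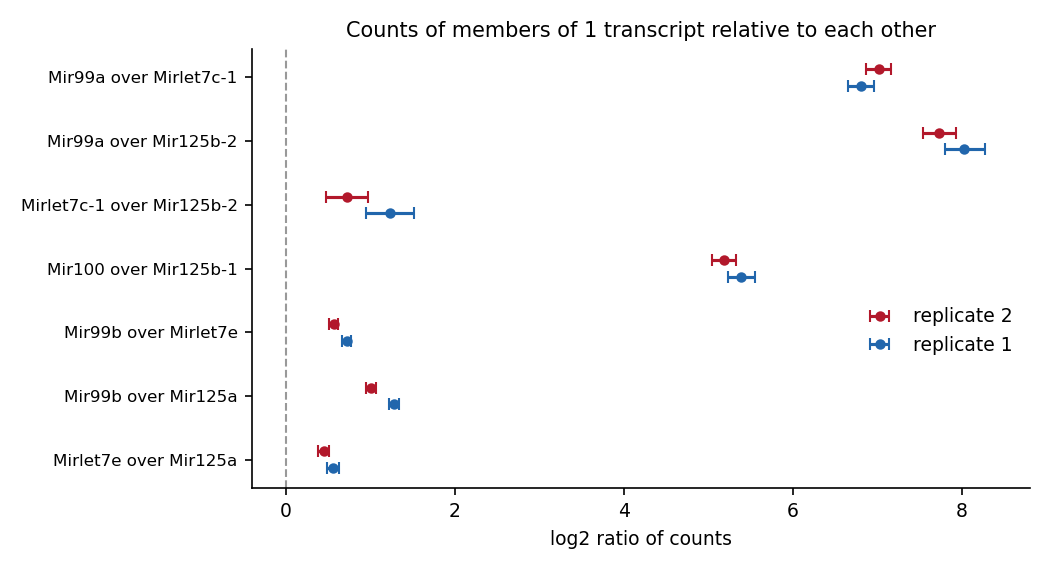
Log2 ratio of counts (x axis) for the 7 pairs of members within a cluster (y axis), in replicate 2 (red) and replicate 1 (blue), with exact 95% intervals. The 3 chromosome 17 pairs lie between 0.45 and 1.28, while the pairs of Mir99a or Mir100 with a member of another family lie above 5. In those pairs the second member has a 5p arm shared with another locus.

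The seeds place the members in families, of whose counts they held very different shares. Family counts hold only reads placed at 1 locus. Reads of 5p arms that occur in several hairpins, such as miR-125b-5p and let-7c-5p, may be missing from them. The shares are thus shares of these counts, not of all miRNA with the seed. The miR-99/100 seed, ACCCGUA, was carried as a 5p seed by 3 gene rows only, all of them members, with 3.74 ± 0.389% of gene counts (SD, n = 2). The related Mir10a and Mir10b have another 5p seed, ACCCUGU, and stood at 4859 ± 60.5 and 23772 ± 1584 CPM, so that Mir10b was close to Mir99a. The let-7 seed, GAGGUAG, belonged to 14 gene rows with 14.4 ± 1.17% of gene counts, Mirlet7a-2 being included by name. Mirlet7e and Mirlet7c-1 held 1.85% of that family in replicate 2 and 2.11% in replicate 1. Most of the let-7 family's counts were those of Mirlet7g and Mirlet7i, with 58157 ± 5924 and 44484 ± 1580 CPM. The 5p arm of each is in 1 hairpin, unlike those of let-7a, let-7c and let-7f. Mir7k and Mir1961 had no count. The miR-125 seed, CCCUGAG, belonged to 6 gene rows with 0.292% of gene counts in replicate 2 and 0.369% in replicate 1. The 3 members held 69.5% of that family in replicate 2 and 63.6% in replicate 1, the X-linked Mir351, with 1117 ± 321 CPM, held the rest, and Mir6394 and Mir6367 had no count.

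Across the gene rows of the let-7 seed, the split by shared 5p arm seen among the members had 1 exception. Mir7j, a gene named like Mir7k, was not among these rows and is left out here, at 23.6 CPM. The 6 genes with counts whose 5p arm is in more than 1 hairpin ranged from 110.7 CPM for Mirlet7a-2 to 4425 CPM for Mirlet7f-2, with a median of 242.0 CPM. The 6 genes whose 5p arm is in 1 hairpin ranged from 2651 CPM for Mirlet7e to 58157 CPM for Mirlet7g, with a median of 14988 CPM. Mirlet7f-2, on the X chromosome, was thus above Mirlet7e, whereas Mirlet7f-1, with the same let-7f-5p, had 232.1 ± 31.2 CPM (SD, n = 2). Mirlet7c-2, the other source of let-7c-5p, had 1023 and 1091 counts, against 369 and 349 for Mirlet7c-1.

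**Figure D4:**
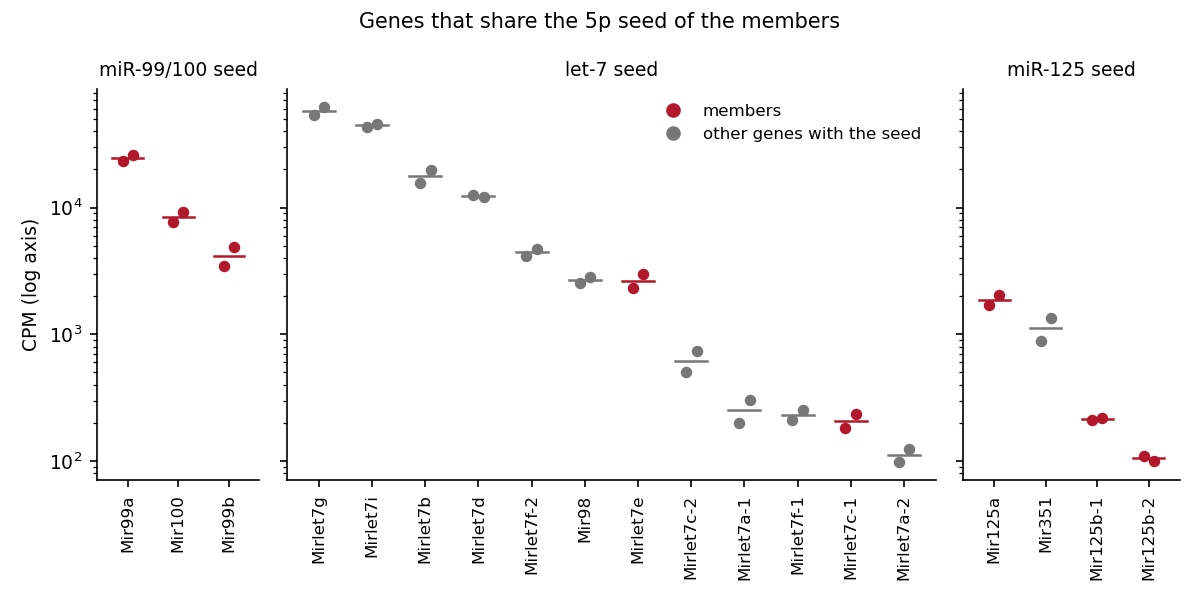
CPM (y axis, log scale) of every gene with counts that carries a member's 5p seed, in replicate 2 (left point) and replicate 1 (right point), with a line at the mean; members are red and other genes grey. Members make up the whole miR-99/100 panel, while in the let-7 panel Mirlet7e and Mirlet7c-1 stand below Mirlet7g at 58157 CPM.

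Between the 2 libraries, 6 of 8 members were lower in replicate 2 than in replicate 1 beyond counting error and none was higher. Each gene was compared by an exact two-sided binomial test on its counts, scaled by TMM (trimmed mean of M values) and adjusted by Benjamini-Hochberg over 313 genes with at least 10 counts in all. Over all 313 genes, 58 (18.5%) were lower and 62 (19.8%) were higher by the same rule. The test passes smaller shifts where counts are higher. Members had 149 to 47599 counts per library, so the 2 shares were not compared at matched depth. The members' log2 ratios of replicate 2 to replicate 1 had a median of -0.24, beside a median of 0.05 for all tested genes. Mir99b differed most, whose log2 ratio was -0.50 (exact binomial test adjusted p = 7.38e-95, interval -0.55 to -0.46). Next came Mirlet7c-1 at -0.35 (-0.57 to -0.14, exact binomial test adjusted p = 0.00377) and Mirlet7e at -0.35 (-0.40 to -0.29, exact binomial test adjusted p = 3.86e-29).

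Mir100 and Mir125a both stood at a log2 ratio of -0.24, with adjusted p = 1.70e-43 and 3.76e-10 in the exact binomial test. Mir99a, the member with the most counts, stood at -0.14 (-0.16 to -0.12, exact binomial test adjusted p = 2.08e-44). The 2 members that did not pass were Mir125b-1 at -0.03 (-0.25 to 0.18) and Mir125b-2 at 0.15 (-0.15 to 0.46), with adjusted p = 0.840 and 0.473 in the exact binomial test. The interval of Mir125b-1 holds the shift of Mir100 from the same cluster, while that of Mir125b-2 holds the shift of Mir99a from its own cluster but not that of Mirlet7c-1. All 3 members on chromosome 17 were lower, as were 2 of 3 on chromosome 16 and 1 of 2 on chromosome 9.

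**Figure D5:**
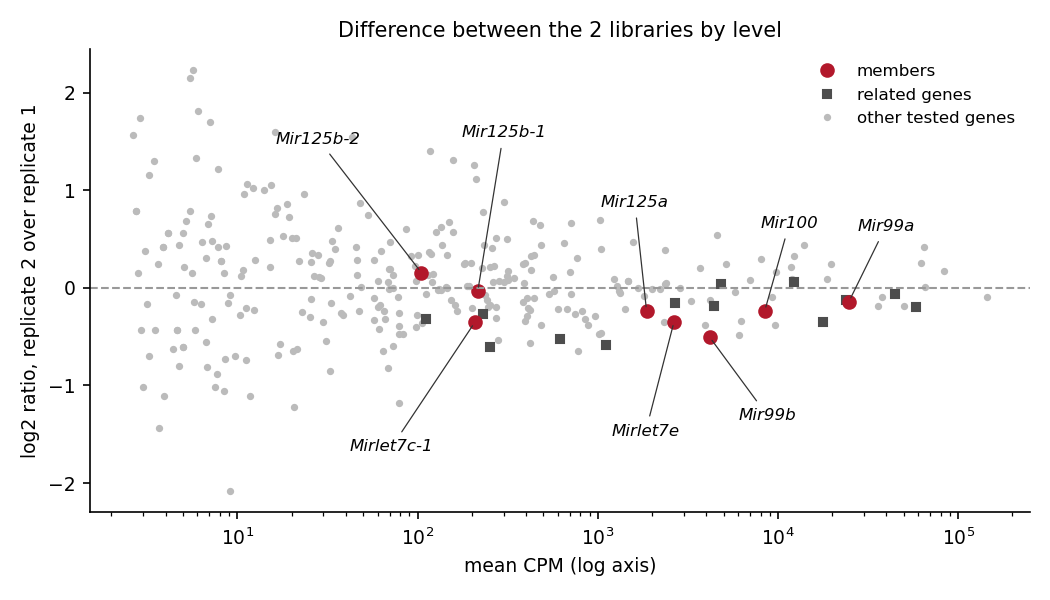
Log2 ratio of replicate 2 to replicate 1 after TMM scaling (y axis) against mean CPM (x axis, log scale) for tested genes with counts in both libraries. Members are red circles, related genes dark squares and other genes grey; 7 of 8 members lie below 0, with Mir99b lowest at -0.50.

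The binomial test takes counting error as the only spread. The common dispersion of all genes, estimated from the same 2 libraries, corresponds to a biological coefficient of variation of 18.0%. With it added, no gene passed (0 of 313, 0%; 15 had an unadjusted p under 0.05, none of them a member), and each member had an adjusted p of 1 in edgeR's exact negative binomial test. That dispersion contains the differences it is used to test, which makes this test a strict one. The shifts of 6 members thus exceeded counting error, and no member's shift passed once the spread of all genes between these libraries was added.

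The 10 other let-7 genes on the related list, with Mir10a, Mir10b and Mir351, were counted in the same way. Of these 13 related genes, 10 were lower in replicate 2 and 1 (Mirlet7d, log2 ratio 0.06) was higher. The other 2 did not pass (Mir10a and Mirlet7a-2, at log2 ratios of 0.04 and -0.32). Mir7j, which is not on the list, had a log2 ratio of 0.96 at 23.6 CPM. Over all 313 tested genes 18.5% were lower and 19.8% higher, again not at matched depth. Mirlet7a-1 at -0.61, Mir351 at -0.58 and Mirlet7c-2, the paralogue of Mirlet7c-1, at -0.53 had larger shifts than any member. The median of the 13 related genes was -0.20. Outside these lists, the 3 genes whose ratio lay nearest to the members' median, among those with 100 counts or more per library, were Mir674 (-0.23), Mir188 (-0.24) and Mir467d (-0.23). With 2 libraries this likeness rests on 1 ratio per gene.

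Marker levels also differed between the libraries. In replicate 2 the skeletal muscle list held 4.84% of gene counts against 5.51% in replicate 1, and the leukocyte list 0.290% against 0.362%. The genes within both lists moved in opposite directions in the exact binomial test: Mir206 (log2 ratio -0.19), Mir486 (-0.27) and Mir1a-2 (-0.20) were lower in replicate 2, while the slow-fibre genes Mir208b (1.31) and Mir499 (0.69) were higher. Among leukocyte genes, Mir155, Mir150 and Mir342 were lower (-0.29 to -0.64), while Mir223 and Mir142 were higher (0.51 and 0.44). The smooth muscle and pericyte genes Mir143 and Mir145a held 7.87% against 5.89%, the endothelial list 8.75% against 7.83%, and the erythroid genes Mir451a and Mir144 0.0355% against 0.0174%. Their part in the members' shifts was not tested.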

How the data were processed

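Small RNA reads of 1 group of 2 libraries were deposited as raw counts per miRNA gene, on the mm10 assembly with GENCODE M21, per the deposited file descriptions. For the aligner, counter and trimming, nothing is given in the sources used here. The deposited tables have 3 count columns and no header. From the values, the first ignores strand, the second counts reads sense to the gene and the third antisense reads; the second was used. The 4 summary rows (unaligned, several loci, outside genes, ambiguous) stayed out of library sizes. Reads outside miRNA genes made up 1.64% and 2.21% of all reads in replicates 2 and 1, and unaligned reads 5.99% and 8.11%. All 2202 identifiers were found in GENCODE M21.

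CPM, shares and ratios were computed from gene counts, with TMM (edgeR 4.0.16, R 4.3.3) for differences between libraries. With 1 group there is no contrast for a quasi-likelihood test, so an exact binomial test per gene was used (threshold 0.05, at least 10 counts summed). It compares 2 libraries and no condition. The binomial test was also run on Poisson counts simulated from the libraries' means, with 317 genes tested for replicate 2 over replicate 1. Counting error was the only spread in them, as the test assumes. Where a shift of 1.5-fold was put in, 30 of 41 genes passed. At 2-fold 22 of 32 passed, at 4-fold 33 of 38, and with no shift 4 of 206. These rates belong to the simulated counts. Between the real libraries 120 of 313 genes passed, and the biological coefficient of variation was 18.0%. The 4 of 206 is thus not a rate of false calls for these libraries, nor are the other rates those of detection in them. Mature sequences came from RefSeq GRCm38.p6 and were compared with the GENCODE hairpins of all 2202 genes. Copies elsewhere in the genome, and reads of CAST alleles that differ from mm10, were not analysed here. Named genes were the 8 members, 13 related genes, genes with a member's 5p seed and the 3 nearest in ratio. Mir7j was named for its symbol, outside these lists. Members and lists were chosen with earlier results of these data known. Alternatives were DESeq2 1.42.0 size factors, unscaled totals, count filters of 1 and 50, the column without strand, other denominators, 1 added count, leaving out a library and the negative binomial test.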

Additional observations from a re-analysis of the deposited data

Results flagged for a closer look

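A column that no comparison used held counts at the chromosome 17 cluster. Gm25927, a miRNA gene annotated on the minus strand across Mirlet7e, had 4718 counts in replicate 2 and 4439 in replicate 1 in the column for the opposite strand, and no counts on its own strand. These equal the Mirlet7e counts on the strand of Mirlet7e in each library, and Mirlet7e had 0 counts in the column without strand. The counts thus give no sign of a separate product from the minus strand. The other 7 members had no counts on the opposite strand and the same counts with and without strand.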

How the results depend on the processing

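The 6 calls among the members were also made with DESeq2 size factors, with unscaled totals and with either count filter. In the column without strand 5 members were called, since Mirlet7e has no counts there. The negative binomial test called 0 members and 0 of 313 genes, against 6 and 120 in the binomial test. Other scalings moved the median ratio of all tested genes by under 0.1 (log2), and Mir125b-2 stayed at the upper end, from 0.14 to 0.17. Among related genes, Mirlet7f-1 missed the threshold with no count filter (binomial test adjusted p = 0.0526), and Mir10a passed it in the column without strand (log2 ratio 0.06, binomial test adjusted p = 0.0352).

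Without strand, the share of gene counts was 3.35% for the chromosome 16 transcript and 1.16% for that on chromosome 9. With Mir378a, the highest gene, out of the total these shares were 2.93% and 1.01%. With all reads as the denominator, those aligned to several loci included, every member's level was lower, at 5009 per 1000000 reads for Mir99a and 21.3 for Mir125b-2. Without strand, 3 of 8 members kept their place in the order, and the members' share of the let-7 seed family was 0.147%. With 1 library left out, 6 to 8 of 8 places were kept, and every other level, share and ratio is the value of the remaining library. A test between libraries cannot be made from 1 library. No paired analysis was possible because there is 1 group. Depth limits Mirlet7c-1, Mir125b-1 and Mir125b-2, with 149 to 431 counts per library.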
